A study of Drosophila melanogaster with 33 samples.

Results

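The genes described here encode the protein subunits of the mitochondrial ribosome of Drosophila melanogaster. They were chosen by symbol, as genes named mRpL or mRpS followed by a number, with at least 10 counts in at least 3 libraries. Among 16727 listed genes, 73 matched the symbol and 72 met the count rule, all but mRpL53. By the letter of the symbol 46 are named for the large subunit (mRpL) and 26 for the small subunit (mRpS). The letter is not always the place of the protein: the mammalian counterparts of mRpS18A and mRpS30 lie in the large subunit.

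The mitochondrial ribosome translates the few messages that the mitochondrial genome encodes, all of them subunits of the oxidative phosphorylation complexes. Its RNAs are made in the mitochondrion, whereas every one of its proteins is encoded in the nucleus, made in the cytosol and imported, so the 2 subunits depend on balanced expression of many unlinked genes. Yorkie (yki) is the transcriptional coactivator that the Hippo pathway restrains through the kinase Warts (wts), and Scalloped (sd) is the DNA-binding partner through which Yki acts on many of its targets. Yki is known in fly tissue as a regulator of growth, and mitochondrial genes are among those reported to respond to it.

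RNA was taken from eye-antennal imaginal discs, the larval precursors of the adult eye and antenna, 5 days after egg laying from larvae raised at 25°C, with at least 30 discs pooled per sample. The 33 libraries form 8 groups in 3 genetic models. In the eyFLP model, ey-FLP made the discs mosaic over a FRT82B chromosome carrying cl-, and the other chromosome was FRT82B wts149 (eyFLP wts-, 2 libraries) or FRT82B alone (eyFLP ctrl, 3 libraries). In the optix model, w/y v discs with optix-Gal4 expressed UAS-yki3SA, an activated form of Yki (optix yki3SA, 2 libraries), or UAS-lucRNAi (optix ctrl, 3 libraries), only where optix is active. In the MARCM model, clones lacking tub-Gal80 expressed UAS-GFP, with UAS-yki3SA (6 libraries), in cells mutant for sd47M (sd-, 5 libraries), with both (yki3SA sd-, 5 libraries) or with neither (ctrl, 7 libraries), and whole discs including the cells outside the clones were sequenced. All eyFLP and optix libraries and 16 MARCM libraries came from sequencing run 1 and the other 7 MARCM libraries from run 2. In run 1 every MARCM group used FRT19A, ey-FLP and Act5C Gal4, as did both sd- groups in run 2, but the run 2 ctrl and yki3SA libraries used FRT42D with y w ey-FLP and tub-Gal4. In run 2 the presence of sd47M and this difference of driver and chromosome cannot be told apart. Nothing in the labels says that the samples of a group are separate crosses, so each p-value is set against the variation seen among the libraries at hand.

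The totals were 4874192 to 15273835 counts per library in run 1 and 17071389 to 19128356 in run 2. The 50 most abundant genes held 27.9% to 32.7% of the counts in run 1 and 15.4% to 18.8% in run 2, so levels are compared within a run only. All 6 eye disc markers and all 4 antennal disc markers were in the tables and none was at 0 throughout a group. In 4 run 1 libraries, from 12 to 147 of 5176 genes that were well detected in run 1 lay below 2 CPM (counts scaled to a common library total), at least 10 times as many as in the lowest library of the same group. They were MARCM sd- replicate 3, MARCM yki3SA sd- replicates 1 and 2, and optix ctrl replicate 2. Among the members, 5, 7, 13 and 5 were below 2 CPM in these libraries, against 0 to 2 in the others, and results that rest on them are given with and without them. Of the manipulated genes, wts stood at 232 and 205 CPM in eyFLP wts- against 146 to 156 in its controls, and sd at 287 to 408 CPM in run 1 MARCM sd- against 399 to 480, so neither mutant lacked tags of its gene. Tags of yki reached 2146 CPM in the run 2 yki3SA library against 64.1 and 67.2 in its controls, while in run 1 yki3SA libraries they stood at 47.7 to 85.5 against 19.9 to 60.6. In libraries labelled yki3SA sd- they stood at 5.40, 2.87 and 10.4 CPM in run 1, against 71.7, 66.0 and 1.45 in sd-, and at 99.1 and 110 against 64.7 and 63.5 in run 2. Run 1 tags thus did not bear out that label, but low tags also occurred without the transgene. In optix ctrl they stood at 6.07, 0 and 17.4 CPM, against 9.84 and 45.4 in optix yki3SA. The values at 0, 1.45, 5.40 and 2.87 are from the 4 libraries that stand apart. In run 2 the level was far below that of yki3SA alone, whose driver and chromosome differed. No source at hand says whether the transgene keeps the yki 3' end. Tags in the run 2 yki3SA library stood far above its controls. Whether tags read the transgene in the other groups, and how much of it the yki3SA sd- libraries expressed, was not tested. The yki3SA sd- group is called by its label. Because whole discs were sequenced, a change in the share of cells of a type and a change in RNA per cell cannot be told apart.

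The summed level of the 72 members was highest in discs with yki3SA clones. As CPM of the whole library total, members held 2702, 2923, 2919, 2841 and 2893 in the 5 run 1 MARCM yki3SA libraries, and 2425, 2325, 2347, 2291 and 2245 in the 5 run 1 MARCM ctrl libraries. All 5 yki3SA libraries lay above all 5 controls. In run 2 the single yki3SA library held 2673 and the controls 2072 and 2124. In sd- discs the sum was 2385, 2316 and 2279 in run 1 and 1966 and 2061 in run 2, within or just below the range of the controls. In libraries labelled yki3SA sd- it was 2172, 1519 and 2185 in run 1 and 1900 and 1912 in run 2, below every control of the same run, and the lowest of these values belongs to a library that stands apart. The eyFLP wts- libraries held 2224 and 2401 against 2268, 2350 and 2160 in their controls, and the optix yki3SA libraries 2311 and 2159 against 2400, 2142 and 2037, so both pairs of groups overlapped.

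**Figure D1:**
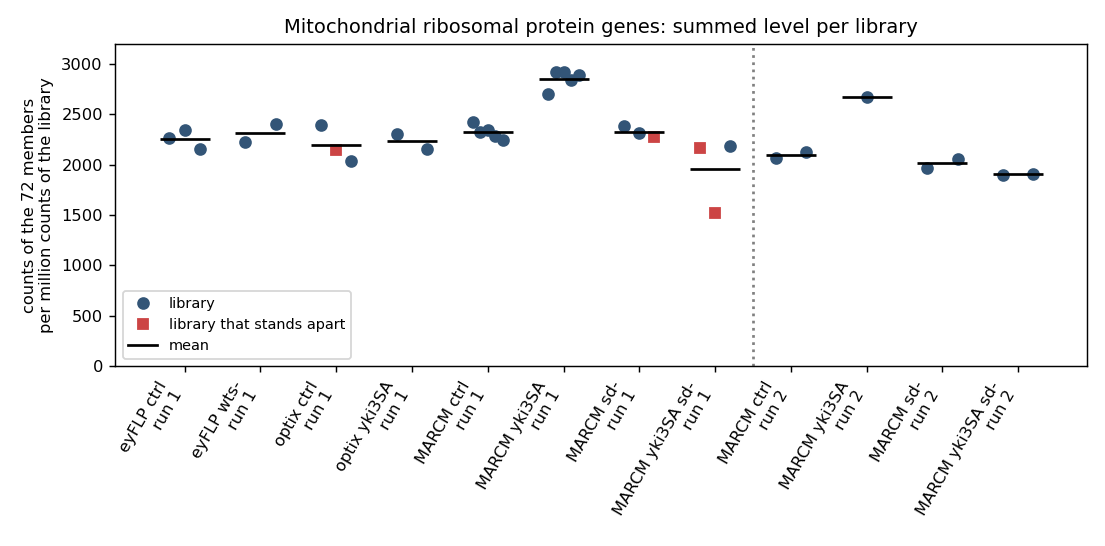
Summed counts of the 72 members, scaled to the total counts of each library (vertical axis, CPM) by group and sequencing run (horizontal axis), with 1 point per library, a square for the libraries that stand apart and a line at the mean. The 5 run 1 MARCM yki3SA libraries lie between 2702 and 2923, above the run 1 MARCM ctrl libraries at 2245 to 2425.

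In MARCM discs with yki3SA, 28 of the 72 members rose and none fell (edgeR quasi-likelihood F test over 8927 genes, Benjamini-Hochberg adjusted p under 0.05, 23 MARCM libraries with the run as a term). Of all genes tested 17.3% rose and 17.1% fell. The fitted log2 fold change was above 0 for all 72 members, with a median of 0.42 against 0.08 for all genes. Upper-quartile scaling lowered the median of all genes by 0.11 on the log2 scale, the number of members that rose to 16 and the share of all calls that rose from 50.2% to 38.2%. Under that scaling 1107 of 8927 genes rose. In run 1 alone every yki3SA library lay above every control for 31 members, and the reverse held for 0, against 17.9% of all genes tested with yki3SA higher throughout. Without the single run 2 yki3SA library 17 members rose, against 1262 of 8895 genes.

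Members named for both subunits rose. Of the 46 named mRpL 18 rose, with a median log2 fold change of 0.43, and of the 26 named mRpS 10 rose, with a median of 0.40. Among these 10 were mRpS18A (0.58 ± 0.11, SE, adjusted p = 0.0002) and mRpS30 (0.48 ± 0.16, SE, adjusted p = 0.019, both edgeR). Every chromosome arm held members that rose: 3 of 12 on 2L, 3 of 11 on 2R, 9 of 17 on 3L, 7 of 21 on 3R and 6 of 11 on X. The fitted log2 fold changes of the members ranged from 0.08 to 0.77.

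mRpL40, a large subunit protein specific to mitochondria (FBgn0037892, dm6 3R:11407918-11408756), had the highest fold change among the members that rose. It stood at 71.9, 74.5, 72.9, 57.9 and 66.6 normalized CPM in the run 1 yki3SA libraries and at 38.4, 42.8, 40.0, 37.0 and 37.9 in the controls, and at 19.8 against 11.7 and 10.7 in run 2. No yki3SA library overlapped a control of its run, and the log2 fold change was 0.77 ± 0.17 (SE, adjusted p = 0.00091, edgeR).

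mRpL1 (FBgn0037566, 3R:8301440-8302770), whose bacterial counterpart forms the mobile stalk beside the site where spent tRNA leaves, stood at 10.8, 12.1, 9.19, 16.3 and 14.1 CPM with yki3SA and at 5.67, 6.26, 6.75, 9.15 and 8.77 in run 1 controls, and at 36.9 against 21.7 and 21.9 in run 2. The lowest yki3SA library was only just above the highest control in run 1. Its log2 fold change was 0.76 ± 0.20 (SE, adjusted p = 0.0041, edgeR). mRpL1 overlaps nac on the opposite strand, and no source at hand says whether counting used strand, so its reads and those of nac cannot be told apart.

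mRpL49 (FBgn0030433, X:12907105-12907942), another large subunit protein specific to mitochondria, stood at 103, 105, 86.3, 72.6 and 77.0 CPM with yki3SA and at 63.1, 59.8, 64.8, 49.1 and 49.5 in run 1 controls, and at 29.0 against 15.2 and 14.1 in run 2. The groups did not overlap in either run. Its log2 fold change was 0.70 ± 0.14 (SE, adjusted p = 0.00027, edgeR).

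Of the genes named mRpS that rose, mRpS35 and mRpS26, both specific to mitochondria, had the highest fold changes. mRpS35 (FBgn0035374, 3L:2780899-2782105) stood at 38.7, 36.5, 35.3, 36.1 and 32.7 CPM with yki3SA and at 24.4, 23.3, 24.6, 20.7 and 23.4 in run 1 controls, and at 35.6 against 18.1 and 19.6 in run 2. mRpS26 (FBgn0036774, 3L:18106579-18107499) stood at 99.8, 88.4, 86.7, 83.3 and 84.5 CPM with yki3SA and at 64.3, 58.2, 60.3, 56.1 and 52.0 in run 1 controls, and at 34.4 against 20.3 and 18.8 in run 2. Neither gene overlapped between the groups in either run, and the log2 fold changes were 0.69 ± 0.19 (SE, adjusted p = 0.0068) for mRpS35 and 0.64 ± 0.18 (SE, adjusted p = 0.0067) for mRpS26 in edgeR.

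**Figure D2:**
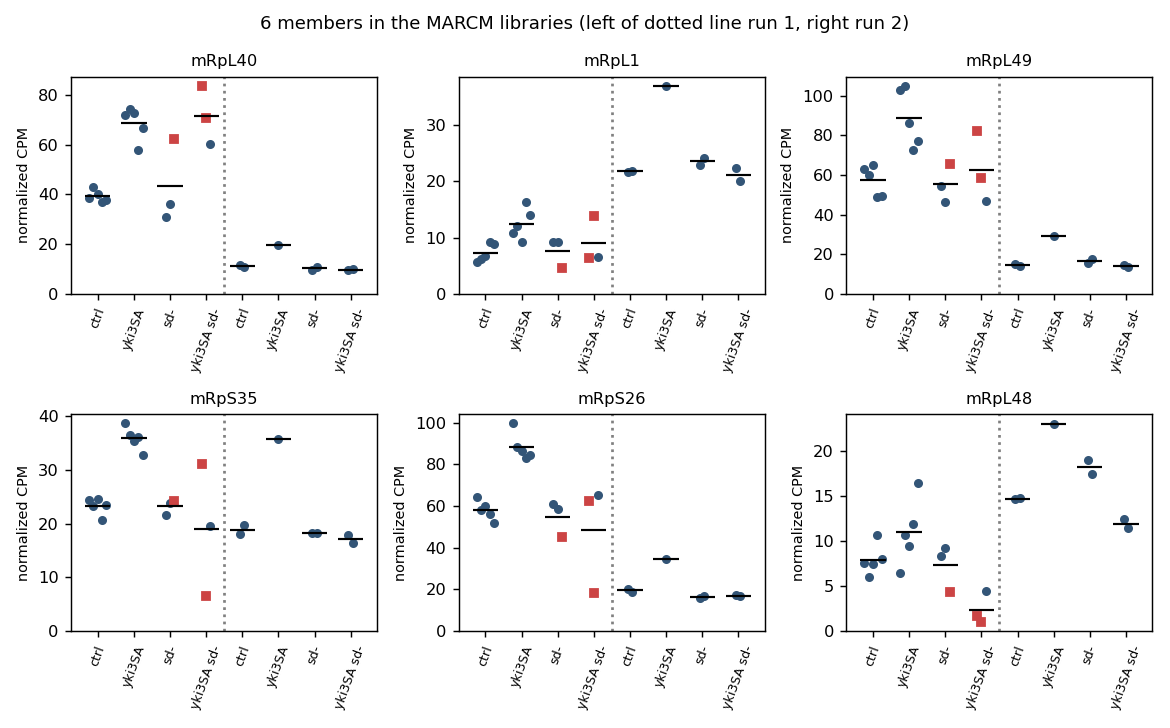
Normalized CPM (vertical axis, from 0) of 6 members in each MARCM library by group, run 1 left and run 2 right of the dotted line, with squares for libraries that stand apart and lines at the means. The yki3SA libraries lie above the controls of their run for the first 5 genes, as for mRpL40 at 57.9 to 74.5 against 37.0 to 42.8 in run 1, while mRpL48 overlaps in run 1.

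mRpL40 was not low in every library labelled yki3SA sd-. It stood there at 83.6, 70.7 and 60.2 CPM in run 1, overlapping the yki3SA libraries, and at 9.69 and 9.79 in run 2, below the controls. mRpS26 stood at 62.5, 18.2 and 65.3 CPM in run 1 and at 17.5 and 16.6 in run 2, below every yki3SA library of its run.

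The yki3SA effect was also fitted to each run, with their different drivers and chromosomes. Fitted to run 1 alone, 69 of 72 members were above 0, with a median of 0.31, and 10 rose against 11.4% of all genes. Fitted to run 2 alone, 71 were above 0, with a median of 0.52. There 69 rose against 29.3% of all genes, but the yki3SA arm is 1 library that is assumed to vary like the other groups, so these calls have no replicate of their own. In both runs 68 members were above 0. The 3 sd- and yki3SA sd- libraries that stand apart belong to neither group of this comparison but enter the shared filter, scaling, run term and spread. Without them the median of all genes went from 0.08 to 0.01, and 49 members rose against 24.6% of all genes, including all 28, with a median of 0.36.

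No member was called in discs with sd- clones. In MARCM sd- discs 0 of 72 members rose and 0 fell (edgeR), while 0.0784% of all genes rose and 0.0224% fell. At an unadjusted p under 0.05, 0 members were higher and 0 lower, and DESeq2 and limma-voom also called 0. The median log2 fold change was -0.03, with a range from -0.28 to 0.55. mRpL35, the member with the smallest p, stood at 25.7, 21.9 and 7.25 CPM in run 1 sd- libraries and 11.2, 8.97, 9.89, 15.0 and 16.1 in controls, and its lowest value belongs to the library that stands apart (log2 fold change 0.41 ± 0.27, SE, adjusted p = 1 in edgeR). mRpS9, a counterpart of bacterial S9, was next, with 0.55 ± 0.38 (SE, adjusted p = 1 in edgeR).

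Against sd- discs, 0 members of yki3SA sd- discs rose and 0 fell in the edgeR fit, as did 0.0336% and 0.101% of all genes, and at an unadjusted p under 0.05 there were 2 higher and 21 lower. DESeq2 called 0 higher and 2 lower, against 114 and 47 of 8927 genes. The edgeR fit to run 1 alone called 2 higher and 12 lower, against 800 and 629 of 8372 genes. Without the libraries that stand apart the run 1 median was -0.19, with only replicate 3 left in yki3SA sd-. In the fit to both runs the median was -0.35, and -0.16 without the libraries that stand apart, with 8 of 72 members then above 0. The 2 members with the smallest p were mRpL2, the counterpart of the bacterial protein that lies close to the peptidyl transferase centre (-0.51 ± 0.14, SE, adjusted p = 0.17), and mRpL48, specific to mitochondria (-1.05 ± 0.33, SE, adjusted p = 0.18), both in edgeR.

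The difference between the yki3SA effects with and without sd- was tested as an interaction, which rests on the libraries labelled yki3SA sd- and their low yki tags. It was below 0 for 70 of 72 members, with a median of -0.77 against -0.09 for all genes, and 24 members fell while 0 rose (edgeR). Of all genes 13.0% fell and 15.0% rose, and upper-quartile scaling moved the share of all calls that rose from 53.6% to 65.8% and the members that fell to 17. Under that scaling 805 of 8927 genes fell. Without the libraries that stand apart 46 members fell, against 17.6% of all genes, with a median of -0.54 and 0 of 72 members above 0. That fit keeps only replicate 3 of the run 1 yki3SA sd- libraries. It thus leans on run 2, where sd47M cannot be told apart from driver and chromosome. Fitted to run 1 without the libraries that stand apart, the median was -0.51, with 4 of 72 members above 0. Without sd- replicate 1 of run 1 there were 15 that fell, against 741 of 9053 genes, and without replicate 2 there were 12, against 735 of 9046. Of those named mRpL 20 of 46 fell, and of those named mRpS 4 of 26, 1 of them mRpS18A (-0.69 ± 0.17, SE, adjusted p = 0.0034, edgeR). This comparison shares libraries with those above.

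**Figure D3:**
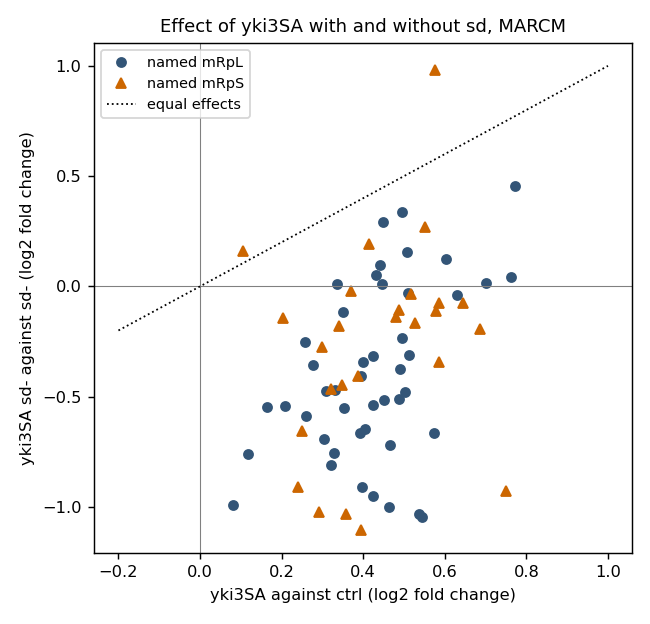
Log2 fold change of each of the 72 members for yki3SA against ctrl (horizontal axis) and for yki3SA sd- against sd- (vertical axis) in MARCM discs, with circles for genes named mRpL and triangles for genes named mRpS. These 2 comparisons share no library, and 70 of the 72 points lie below the dotted line of equal effects.

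mRpL48 (FBgn0031357, 2L:1710462-1711465), which overlaps frtz on the opposite strand, had the largest interaction among the 24 members called. It stood at 1.67, 0.958 and 4.50 CPM in run 1 yki3SA sd- libraries, at 8.36, 9.18 and 4.35 in sd-, at 6.43, 10.6, 9.40, 11.9 and 16.4 in yki3SA and at 7.56, 5.98, 7.45, 10.6 and 7.97 in ctrl. In run 2 it stood at 12.5 and 11.4, at 19.0 and 17.4, at 22.973, and at 14.6 and 14.8 in the same order of groups. In both runs the yki3SA sd- libraries were the lowest of the 4 groups apart from one sd- library in run 1 that stands apart. Its interaction was -1.59 ± 0.43 (SE, adjusted p = 0.0081, edgeR), and -1.15 ± 0.29 (adjusted p = 0.0038) without the libraries that stand apart.

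The next 4 members by size were mRpL55 (-1.46 ± 0.54, SE, adjusted p = 0.048), mRpL36, the counterpart of a small zinc-binding protein of bacterial ribosomes (-1.38 ± 0.41, adjusted p = 0.016), mRpL35 (-1.31 ± 0.40, adjusted p = 0.018) and mRpL9 (-1.24 ± 0.37, adjusted p = 0.016), all in edgeR. Without the libraries that stand apart they were -1.01 (adjusted p = 0.0075), -0.97 (adjusted p = 0.0022), -1.04 (adjusted p = 0.011) and -0.82 (adjusted p = 0.0015). mRpL36 stood at 10.8, 5.99 and 25.3 CPM in run 1 yki3SA sd- libraries against 48.7, 51.9 and 16.9 in sd-, and at 8.08 and 7.93 against 10.2 and 9.47 in run 2. The library at 16.9 is the sd- library that stands apart, and it lay inside the yki3SA sd- range.

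Compared directly with yki3SA discs, discs labelled yki3SA sd- had 62 members lower and 1 higher (edgeR), against 28.1% of all genes lower and 24.9% higher. The median was -0.87 against -0.08 for all genes. Of those named mRpL 42 of 46 fell and of those named mRpS 20 of 26. Without the libraries that stand apart 59 fell, against 24.6% of all genes, and the median was -0.57. Fitted to run 1 alone, 45 fell and 1 rose, against 2207 and 2293 of 8372 genes, with a median of -0.89. Without the libraries that stand apart the run 1 median was -0.50, with only replicate 3 left in yki3SA sd-. In run 2, where the 2 groups differ in driver and chromosome, the median was -0.66. Of the 28 members that rose with yki3SA, 24 were among those called in this comparison, as were 63 of all 72 members. With so many called, the overlap does not set the 28 apart from the other members. The comparison also shares the yki3SA libraries with the first.

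mRpS24, whose mammalian counterpart is related to bacterial S3, had the largest fitted fall. It was at 0 CPM in all 3 run 1 yki3SA sd- libraries and at 0.209 to 1.77 in run 1 yki3SA, and stood at 8.22 and 8.82 against 19.8 CPM in run 2, with a log2 fold change of -1.71 ± 0.56 (SE, adjusted p = 0.014, edgeR), which depends on the prior count where a group is at 0. The log2 fold change was -1.60 ± 0.42 for mRpL55, -1.60 ± 0.33 for mRpL48, -1.54 ± 0.45 for mRpS18C and -1.48 ± 0.56 for mRpL43 (SE), with adjusted p of 0.0034, 0.00045, 0.0076 and 0.031 in edgeR. Without the libraries that stand apart these were -0.81, -0.95, -0.78 and -0.74, with adjusted p of 0.0054, 0.0021, 0.0077 and 0.089, so the call of mRpL43 was lost.

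mRpS9 was the 1 member higher in yki3SA sd- than in yki3SA discs (log2 fold change 0.95 ± 0.39, SE, adjusted p = 0.046, edgeR). It stood at 16.8, 40.2 and 9.76 CPM in run 1 against 5.42, 8.58, 5.64, 9.62 and 6.44, but at 35.1 and 32.4 against 55.9 in run 2. The runs went in opposite directions, and the 2 highest run 1 values are from libraries that stand apart, without which the value was -0.19 (adjusted p = 0.59). The gene overlaps ArgRS-m and wtrw on the opposite strand.

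**Figure D4:**
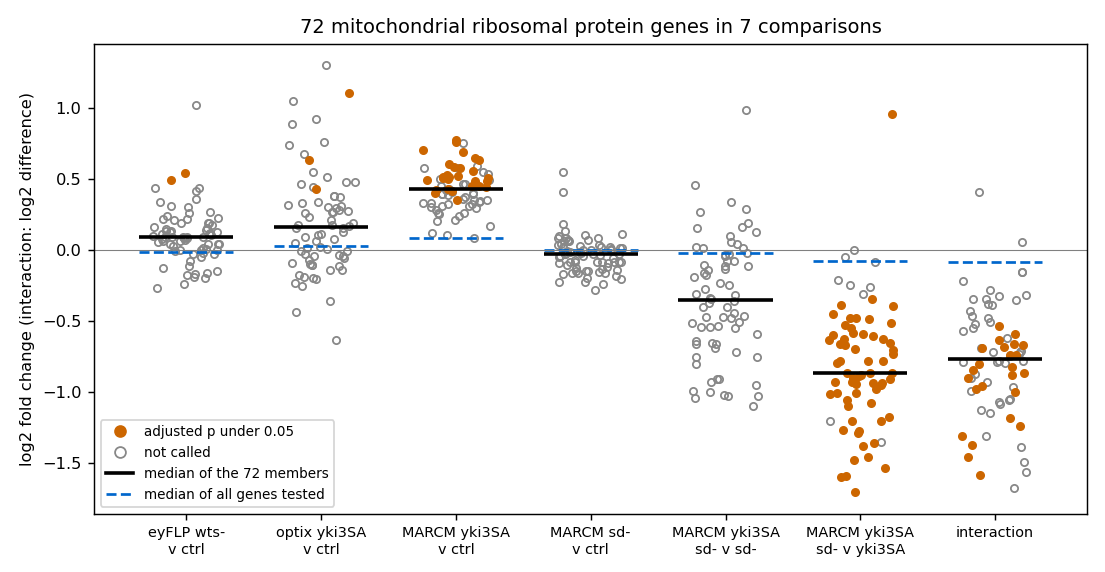
Log2 fold change (vertical axis) of each of the 72 members in 7 comparisons, with filled points for adjusted p under 0.05 in edgeR, a solid line at the median of the members and a dashed line at the median of all genes tested. The members' median was 0.42 for MARCM yki3SA against ctrl and -0.87 for yki3SA sd- against yki3SA.

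In discs mutant for wts, 2 members rose and 0 fell (edgeR over 8693 genes, 20 run 1 libraries), against 10.6% of all genes that rose and 13.5% that fell. The share of members that rose was below that of all genes. The median was 0.09 against -0.01 for all genes. mRpS35 stood at 22.3 and 25.7 CPM against 15.4, 17.2 and 16.8 in controls (0.54 ± 0.14, SE, adjusted p = 0.0049). mRpL28, the counterpart of bacterial L28, stood at 54.5 and 51.3 CPM against 35.9, 38.5 and 38.7 (0.49 ± 0.15, SE, adjusted p = 0.017). Neither gene overlapped between groups, and both also rose in MARCM yki3SA discs. Without wts- replicate 2 the median was 0.067, and without wts- replicate 1 it was 0.145. Without ctrl replicate 1, 1 member rose, against 778 of 8678 genes. Fitted to the 5 eyFLP libraries alone, 6 members rose, against 1332 of 7973 genes.

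In optix yki3SA discs 3 members rose and 0 fell (edgeR), against 9.02% of all genes that rose and 10.5% that fell, and the median was 0.16 against 0.03. mRpL10, whose bacterial counterpart anchors the stalk that recruits translation factors, stood at 5.04 and 5.74 CPM against 3.42, 1.82 and 2.12 (1.11 ± 0.32, SE, adjusted p = 0.018). mRpS18B, one of the relatives of bacterial S18, stood at 48.6 and 36.6 CPM against 30.2, 22.8 and 28.7 (0.64 ± 0.15, SE, adjusted p = 0.0035). mRpL2 stood at 15.8 and 15.6 CPM against 13.1, 10.4 and 11.6 (0.42 ± 0.14, SE, adjusted p = 0.038). The lowest control value of mRpL10, mRpS18B and mRpL2 was from optix ctrl replicate 2, which stands apart, and without it mRpS18B was still called (0.53, adjusted p = 0.020) while mRpL10 (0.95, adjusted p = 0.068) and mRpL2 (0.35, adjusted p = 0.13) were not. Leaving out either yki3SA library leaves an arm of 1, which is assumed to vary like the other groups, as it does for wts-. Without yki3SA replicate 1 the median was 0.14, and without yki3SA replicate 2 it was 0.12. Without ctrl replicate 1 there were 7 that rose, against 819 of 8658 genes, and without ctrl replicate 3 there were 8, against 984. Fitted to the 5 optix libraries alone, 0 members were called, while 174 of 8067 genes rose and 380 fell. No member was called in all 3 models.

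The effects of the models were compared in run 1. Between eyFLP wts- and optix yki3SA 0 members differed (edgeR, with 2 higher and 3 lower at an unadjusted p under 0.05), against 3.36% and 4.83% of all genes. mRpL40 (0.69 ± 0.26, SE, adjusted p = 0.11) and mRpS18B (-0.53 ± 0.21, SE, adjusted p = 0.14) had the smallest p. Between eyFLP wts- and MARCM yki3SA 0 members differed (0 higher and 4 lower at an unadjusted p under 0.05), against 3.59% and 4.92%, with a median of -0.22. mRpL22 (-0.44 ± 0.15, SE, adjusted p = 0.077) and mRpL20 (-0.51 ± 0.19, SE, adjusted p = 0.12) had the smallest p there, and a p above the threshold does not show that the effects were alike.

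Between optix yki3SA and MARCM yki3SA 1 member had a larger and 6 a smaller effect in optix (edgeR), against 7.75% and 8.02% of all genes. With the replicate number as a block over all 20 libraries, 1 was larger and 14 were smaller, against 737 and 766 of 8693 genes. That block also ties eyFLP and optix libraries to MARCM libraries that share only a number. In the fit without the block the larger was mRpL10 (1.19 ± 0.38, SE, adjusted p = 0.039, edgeR). Among the smaller were mRpS9 (-1.33 ± 0.43, adjusted p = 0.040), mRpL40 (-1.11 ± 0.22, adjusted p = 0.0014), mRpL52 (-0.92 ± 0.28, adjusted p = 0.029) and mRpS14 (-0.62 ± 0.20, adjusted p = 0.035). mRpL40 stood at 43.2 and 30.5 CPM in optix yki3SA against 46.4, 59.7 and 35.6 in its controls. Without optix ctrl replicate 2 mRpL40 was the 1 member called (-0.91, adjusted p = 0.0044), and the other 4 had adjusted p from 0.089 to 0.12. Without optix ctrl replicate 3 the smaller effects numbered 12, against 839 of 8658 genes. Leaving out optix yki3SA replicate 1 or 2 leaves an arm with a single library, and the median difference was then -0.183 or -0.180. Both effects come from 1 joint fit of run 1.

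Neighbouring parts of the mitochondrial gene expression system were read from lists in the same fits. Of the mitoribosomal genes under other names, tko, which encodes a small subunit protein, rose in MARCM yki3SA discs (0.55 ± 0.13, SE, adjusted p = 0.0023), and bonsai, also of the small subunit, was at 0.41 ± 0.28 (adjusted p = 0.28), both in edgeR. In optix yki3SA discs tko fell by 0.64 ± 0.14 (SE, adjusted p = 0.0015, edgeR). For the lists that follow, the share of all genes that rose was 17.3% in MARCM yki3SA and 9.02% in optix yki3SA, and 28.1% fell in yki3SA sd- against yki3SA. Of nuclear-encoded oxidative phosphorylation subunits 37 of 63 rose in MARCM yki3SA discs and 0 fell, with a median of 0.44, and 48 fell in yki3SA sd- against yki3SA discs. Of mitochondrial translation factors 5 of 12 rose and 0 fell, among them the release factor gene CG5705 (mRF1, 0.86 ± 0.17, SE, adjusted p = 0.00029) and the elongation factor gene ico (mEFG1, 0.73 ± 0.18, SE, adjusted p = 0.0027), both in edgeR. At or below the share of all genes, 1 of 18 mitochondrial aminoacyl-tRNA synthetases rose, and of genes maintaining mitochondrial DNA and RNA 2 of 12, including TFAM, which packages mitochondrial DNA (0.42 ± 0.11, SE, adjusted p = 0.0030, edgeR). Of cytosolic ribosomal proteins 5 of 86 rose and 1 fell in MARCM yki3SA discs, 22 rose and 1 fell in optix yki3SA, and 60 fell in yki3SA sd- against yki3SA discs.

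Among regulators of growth, dm, which encodes Myc, rose in all 3 models by 0.92 ± 0.14 in eyFLP wts-, 1.09 ± 0.14 in optix yki3SA and 0.49 ± 0.15 in MARCM yki3SA (SE, adjusted p = 2.67e-05, 6.14e-06 and 0.015, edgeR). Of the 8 listed regulators 2 rose and 1 fell in MARCM yki3SA discs. The fly relative of NRF-1, ewg, fell by 0.56 ± 0.14 in MARCM yki3SA discs (SE, adjusted p = 0.0030, edgeR). The fly relative of PGC-1, srl, named after its values were seen, rose there by 0.45 ± 0.13 (SE, adjusted p = 0.0071) and in eyFLP wts- by 0.43 ± 0.12 (SE, adjusted p = 0.0078), both in edgeR.

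Cell composition markers moved with the MARCM yki3SA result. In run 1 the 6 eye disc markers summed to 204 to 232 CPM with yki3SA against 645 to 737 in controls, the 4 hemocyte markers to 13.1 to 23.5 against 75.5 to 104, the 2 peripodial markers to 81.5 to 88.4 against 226 to 244, and the 3 tracheal markers to 1551 to 2042 against 401 to 574, with no marker of these lists at 0 throughout. The 4 antennal disc markers summed to 3490 to 4462 CPM against 4721 to 5587, and the 2 glial markers to 39.37 to 47.27 against 20.98 to 31.45. In eyFLP wts- discs the eye disc markers were at 120 to 139 CPM against 668 to 728, the tracheal markers at 1016 to 1128 against 393 to 422 and the glial markers at 54.7 to 55.1 against 16.7 to 27.3. In optix yki3SA the eye disc markers were at 183 to 192 CPM against 560 to 597, and the antennal disc markers were higher, at 4915 to 5116 against 3817 to 4542. In run 1 yki3SA sd- libraries the hemocyte markers summed to 175 to 442 CPM against 49.7 to 119 in sd-, and 2 of these 3 libraries stand apart, while in run 2 they summed to 48.3 to 65.9 against 51.1 to 56.6. The part of these shifts in the members' levels was not tested.

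Levels of single members differed strongly between the runs. In sd- discs, whose genotype was the same in both, 34 members were over 2-fold lower in run 2 and 6 over 2-fold higher. mRpL33 averaged 158 CPM in run 1 and 11.6 in run 2, and mRpS9 8.23 and 36.3. Across the 72 members the log2 run difference correlated with the median annotated transcript length (Spearman rho 0.51, across genes that share the same libraries, as a description), against 0.27 across 6762 genes. The part of transcript length was not tested further.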

How the data were processed

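The authors deposited whole-number counts per gene and library from QuantSeq 3' FWD libraries, made from discs pooled per sample, per the labels. Per the submitters' processing notes the tools were cutadapt, FastQC and STAR 2.6.1d with the dm6 build, while no label or header records how reads were assigned to genes or whether strand was used, so overlapping genes are uncertain (41 members overlap a gene on the opposite strand and 2 on the same strand). A 3' tag count is not scaled by transcript length, so levels of different genes are not compared. Positions are from the Ensembl annotation of BDGP6, the assembly that dm6 names.

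Members and lists were chosen with earlier results of these data known. Genes were filtered with filterByExpr, scaled by TMM and tested with the edgeR 4.0.16 quasi-likelihood F test (robust, R 4.3.3), and p-values were adjusted over all genes tested, with calls under 0.05. One fit held 20 run 1 libraries of the 3 models and another the 23 MARCM libraries with the run as a term. Standard errors are the fold change over the root of F. Named members are the up to 5 with the largest rise and 5 with the largest fall among those called in a comparison, up to 5 by size in the interaction and the differences between models, and where none was called the 2 with the smallest p. From other lists up to 2 called genes per comparison could be named. Libraries that stand apart were identified after seeing the data, as run 1 libraries with at least 10 times as many of 5176 reference genes below 2 CPM as the lowest library of their group. The fits were tested on simulated data for bias, sign, false calls and standard errors. That test set no minimum on how many true changes must be called, so low counts of calls with 2 against 3 libraries do not show that members did not change. Alternatives tried were upper-quartile or DESeq2-type scaling, other filters, DESeq2 1.42.0, limma-voom 3.58.1, leaving out each replicate, a replicate block, single runs and only the groups compared.

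Same-numbered MARCM ctrl and yki3SA libraries of run 1 deviated together in all 5 pairs (r from 0.12 to 0.39, across genes). In the other pairs of groups r was from -0.44 to 0.31. Libraries with different numbers were not compared, and the labels do not say that numbers mark pairs, so pairing is not established. For mRpL12, replicates 4 and 5 lay apart from 1 to 3 in both groups. They stood at 108 and 110 CPM against 134 to 154 in ctrl, and at 168 and 156 against 202 to 215 in yki3SA. A search of promoters for motifs was planned and not run, and no sequences are shown.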

Additional observations from a re-analysis of the deposited data

Results flagged for a closer look

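By the interaction test in edgeR, the effect fitted to discs labelled yki3SA differed between sd- and sd+ MARCM discs for 24 members. Among them were mRpL48 (-1.59), mRpL55 (-1.46), mRpL36 (-1.38), mRpL35 (-1.31) and mRpL9 (-1.24). That test rests on the libraries labelled yki3SA sd-, whose yki tags were low. In run 2 the presence of sd47M cannot be told apart from driver and chromosome. The effect of yki3SA differed between the optix and MARCM models, by the test of the difference in edgeR, for mRpS9 (-1.33), mRpL10 (1.19), mRpL40 (-1.11), mRpL52 (-0.92) and mRpS14 (-0.62), all on the log2 scale. Without optix ctrl replicate 2, which stands apart, mRpL40 was the 1 member still called. The MARCM ctrl and yki3SA groups of run 1 were searched for a library far from the other 4 in 46 sets of values, and 0 were found, where chance gives about 1 in 20.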

How the results depend on the processing

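Fitted to the 2 groups alone, 6 members rose in eyFLP wts- (1332 of 7973 genes) and 0 in optix yki3SA (174 of 8067). In MARCM yki3SA 16 rose under upper-quartile scaling, 16 with no filter on low counts, 49 without the libraries that stand apart (chosen after seeing the data, as was run 2 alone), 10 in run 1 only and 69 in run 2 only. In sd- 1 member fell in run 2 only, against 170 of 9521 genes. In yki3SA sd- against sd-, 2 fell in DESeq2, 2 rose and 12 fell in run 1 only, 1 and 5 in run 1 without the libraries that stand apart, and 2 fell in run 2 only, with medians of -0.156 without those libraries and -0.108 in run 2. Against yki3SA, the 1 member that rose became 0 with no filter, in limma-voom, with the replicate block, without the libraries that stand apart, in run 1 without them and in run 2. There the medians were -0.571 without the libraries that stand apart, -0.499 in run 1 without them and -0.656 in run 2. In the interaction 15 fell with no filter, 46 without the libraries that stand apart, 13 in run 1 and 65 in run 2, with medians of -0.540 without those libraries and -0.506 in run 1 without them. Without them the optix median was 0.084, that of the eyFLP and optix difference 0.024 and that of the optix and MARCM difference -0.227. In the last, 0 members were higher with no filter, with at least 10 CPM, in limma-voom and without those libraries, and 14 were lower with the replicate block and 1 without those libraries.

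mRpS9 changed sign in sd- in run 2 only (-0.041) and in yki3SA sd- against yki3SA in limma-voom (-0.037), without the libraries that stand apart (-0.186) and in run 2 only (-0.574). The cause was not tested. Of the other values of named members under alternatives, 655 kept direction and side of the threshold, 107 lost the call and 7 gained one.

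Leaving out each replicate, members that rose numbered 0 to 2 in eyFLP (median 0.067 to 0.145), 1 to 8 in optix (0 to 3 fell, median 0.084 to 0.235) and 17 to 29 in MARCM yki3SA (median 0.374 to 0.453). In sd- and in yki3SA sd- against sd- the members called numbered 0 in each direction, with medians of -0.072 to -0.012 and -0.454 to -0.175. Against yki3SA 0 to 1 rose and 50 to 62 fell (median -0.912 to -0.58). In the fits with the fewest and the most, 2164 of 8895 and 2526 of 8998 genes fell. In the interaction 12 to 32 fell (median -0.879 to -0.554), and in the corresponding fits 735 of 9046 and 1355 of 9043 genes fell. For the differences between models, some fits again hold a single library in an arm, and only medians are given. They were -0.169 to 0.037 between eyFLP and optix, -0.284 to -0.171 between eyFLP and MARCM, and -0.227 to -0.046 between optix and MARCM.

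With the replicate block 25 of the 28 members rose in MARCM yki3SA (1360 of 8927 genes). With it 3 rose in eyFLP (910 of 8693 genes) and 3 in optix (775 of 8693). It left 51 that fell against yki3SA (1997 of 8927) and 21 that fell in the interaction (941 of 8927). Whether libraries that share a number are pairs is not known. Low counts limit mRpS24, with at least 10 counts in only 15 libraries.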
